A study of Mus with 6 samples.

Results

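The genes described here encode the machinery by which activated T cells take up and ferment glucose, divert it into the pentose phosphate pathway and adjust both to oxygen. The set holds 42 genes, out of 10995 genes listed for the series, named by pathway with earlier results of these data known. It comprises 4 transporters of glucose and lactate, 17 glycolytic enzymes, 4 regulators of glycolytic flux, 7 enzymes of the pentose phosphate pathway and 10 genes of the hypoxia response. All 42 were listed and all 42 had a mean of at least 1 FPKM over the 6 libraries, so that none was lost to the filter on low values.

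Naive CD4+ T cells from the spleens of WT mice were activated for 3 days with anti-CD3 (5 μg/mL), anti-CD28 (2 μg/mL) and IL-2 (100 U/mL). During activation VEGF-B, a growth factor that activated T cells themselves secrete, was neutralized with an antibody, called anti–VEGF-B, at 1 μg/mL, and the control cultures received normal IgG at the same concentration. Each group had 3 RNA-Seq libraries. All cells of both groups were therefore activated, and no resting cells were compared here. The comparison addresses whether the RNA of glucose-handling genes differs when VEGF-B is neutralized during activation. The sources used here do not say whether the 3 libraries of a group came from separate mice or cultures, and the p-values measure the spread between these libraries, which may be technical.

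Glycolysis splits glucose into pyruvate, which lactate dehydrogenase reduces to lactate, and proliferating T cells rely on this route even when oxygen is present. The pentose phosphate pathway branches off at glucose 6-phosphate and yields NADPH and ribose for nucleotides. HIF-1α is the oxygen-regulated subunit of a transcription factor that activates many glycolytic genes. The EGLN prolyl hydroxylases mark HIF-1α for degradation when oxygen is present, and Egln1 and Egln3 are themselves known HIF targets.

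The values were FPKM, a unit corrected for gene length and library size, so that levels of different genes can be set side by side. Fold changes are differences in log2(FPKM + 1), anti–VEGF-B minus IgG, and for weakly expressed genes they come out smaller than the change in FPKM itself. They were tested with limma over 8816 genes that averaged 1 FPKM or more, and those with a Benjamini-Hochberg adjusted p under 0.05 are described as called. Over all genes tested the median fold change (log2) was -0.15 as deposited, 0.0077 after quantile normalization and 0.038 after scaling the libraries to a common median. The values as deposited were used unless stated.

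All 6 T cell markers were present, with summed levels between 342 FPKM, in anti–VEGF-B replicate 2, and 430.5 FPKM, in IgG replicate 2. Cd3e (log2 fold change -0.51, limma adjusted p = 0.0197) and Cd5 (-0.38, adjusted p = 0.0343) were called lower, as were 23.8% of all genes tested. Cd3d, Cd4, Cd3g and Cd2 were not called, at 0.10, 0.034, -0.43 and -0.087. Of the 2 CD8 T cell markers, Cd8a was at or below 0.182 FPKM in every library and Cd8b1 at 2.27 to 4.51 FPKM. Of the B cell markers 1 of 5 was listed, Cd79b, at 0.665 to 1.34 FPKM. The 4 of 6 myeloid markers that were listed summed to 11.4 to 12.9 FPKM with anti–VEGF-B and to 13.1, 12.8 and 28.8 FPKM with IgG, the high value being that of IgG replicate 3. None of the 3 NK cell and 5 erythroid markers was among the genes listed for the series. The first principal component held 65.1% of the variance and set the groups apart. Replicates 1, 2 and 3 were at -13.1, -13.5 and -21.0 with anti–VEGF-B and at 8.76, 27.2 and 11.8 with IgG. The libraries farthest out in their groups were anti–VEGF-B replicate 3 and IgG replicate 2. The part of these differences in the results was not tested, and in bulk RNA fewer cells of a type and less RNA per cell cannot be told apart.

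Of the 42 genes, 9 were called higher and 3 lower with anti–VEGF-B, that is, 21.4% and 7.14% of the set. Among all genes tested, 4.87% were called higher and 23.8% lower. The higher genes were Slc16a1, Pfkl, Aldoa, Gapdh, Eno1, Pfkfb3, Hif1a, Egln1 and Ndrg1, and the lower genes were G6pdx, Rpe and Egln3. The median log2 fold change of the set was 0.14, with 32 positive and 10 negative values. Over all genes tested 28.8% of the values were positive. The 3 values of one group lay entirely above those of the other for 16 genes of the set in the direction of anti–VEGF-B and for 6 genes in the direction of IgG. Over all genes tested these shares were 10.5% and 38.5%.

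The set is abundant, and abundance went together with the sign of the change. Of the 42 genes, 25 had a mean of at least 100 FPKM, a limit set after the values were seen, against 354 of all genes tested. Of those 354 genes 16.7% were called higher and 5.93% lower, with a median log2 fold change of 0.099, and of the 25 genes of the set 6 were called higher and 1 lower, with a median of 0.15. The other 17 genes of the set included 3 higher and 2 lower genes and had a median of 0.0014. Across all genes the median log2 fold change was -0.23 at 1 to 3 FPKM, -0.19 at 3 to 10 FPKM, -0.096 at 10 to 30 FPKM and -0.0061 at 30 to 100 FPKM. The members' medians in these ranges were -0.13, -0.086, 0.0054 and 0.20.

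**Figure D1:**
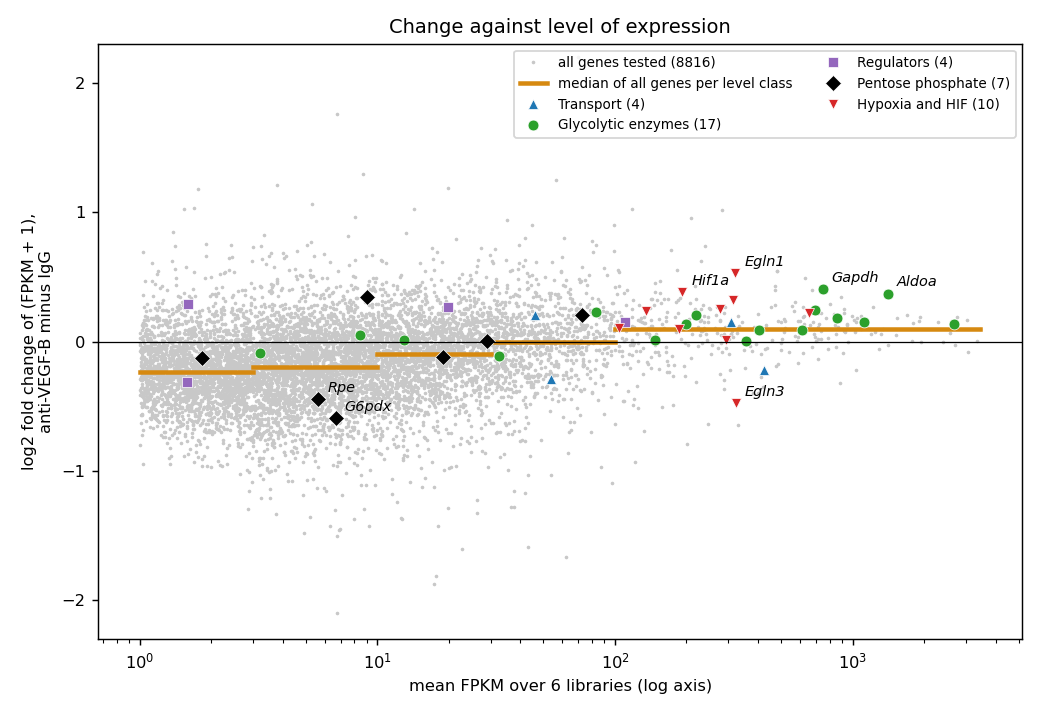
Log2 fold change, anti–VEGF-B minus IgG (log2(FPKM + 1) scale, vertical axis) against the mean FPKM over the 6 libraries (log axis) for the 8816 genes tested, with the 42 genes of the set marked by role and bars at the median of all genes in each range of levels. These medians of all genes go from -0.23 at 1 to 3 FPKM to 0.099 at 100 FPKM and above, where 25 genes of the set lie.

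The scaling between libraries changed how many genes of the set were called. After quantile normalization 8 were higher and 2 lower, beside 9.98% and 10.4% of all genes tested, and the median of the set was 0.094. After scaling to a common median 20 were higher and 1 lower, beside 16.1% and 10.4% of all genes, and the median was 0.37. Slc16a1, Aldoa, Pfkfb3, Hif1a, Egln1 and Ndrg1 were called higher and G6pdx lower under all 3 scalings. Pfkl, Gapdh and Eno1 lost the call with quantile normalization, Egln3 lost it with the common median, and Rpe lost it with both.

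**Figure D2:**
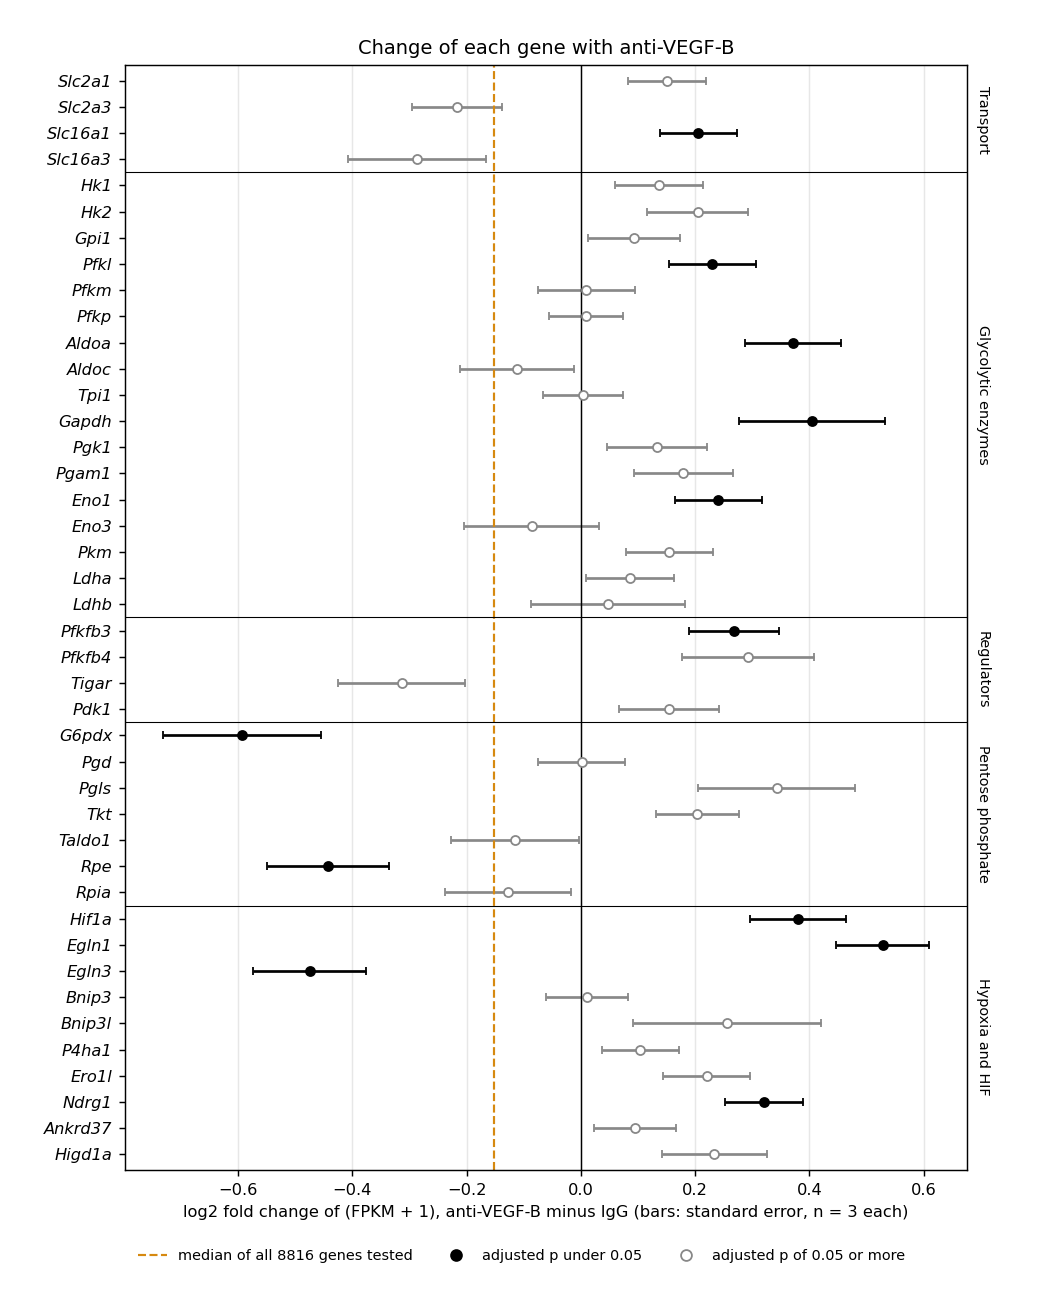
Log2 fold change, anti–VEGF-B minus IgG, for each of the 42 genes (log2(FPKM + 1) scale, limma, bars are standard errors), ordered by role in the pathway, with filled points for called genes and a dashed line at the median of all genes tested. Egln1 has the highest value at 0.53 and G6pdx the lowest at -0.59, and 15 of the 17 glycolytic enzymes lie above 0. Of all genes tested 28.8% lie above 0, and of those with a mean of at least 100 FPKM 69.5%.

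Among the transporters, Slc16a1, which encodes the lactate and pyruvate carrier MCT1 (GRCm38, chr3:104638668-104658462), was called higher. It was at 48.8, 48.4 and 50.4 FPKM with anti–VEGF-B and at 41.8, 41.6 and 44.2 FPKM with IgG, and the groups did not overlap. The difference was 0.21 (SE 0.068, n = 3 per group, limma adjusted p = 0.0488). The call held under 4 of the 13 alternatives, and leaving out any of the 6 libraries ended it (adjusted p = 0.0741 to 0.154).

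The other 3 transporters were not called. None of them had overlapping groups, which held for 38.5% (lower) and 10.5% (higher) of all genes tested. Slc2a1, encoding the glucose transporter GLUT1, was at 322, 339 and 314 FPKM with anti–VEGF-B and at 295, 293 and 290.3 FPKM with IgG (log2 fold change 0.15, limma adjusted p = 0.122). Slc2a3, encoding the high-affinity glucose transporter GLUT3, was on the opposite side at 410.3, 398 and 363 FPKM against 430.1, 472 and 459 FPKM (-0.22, limma adjusted p = 0.0654). The value of Slc2a3 was 0.016 with the common median, so that its direction depended on the scaling. Slc16a3, encoding the lactate exporter MCT4, was at 48.3, 48.7 and 46.7 FPKM against 49.1, 71.5 and 57.4 FPKM, the highest value being that of IgG replicate 2 (-0.29, limma adjusted p = 0.0996). Its difference was -0.15 without IgG replicate 2, and without IgG replicate 1 it was called lower (-0.41, adjusted p = 0.0246). The median of the 4 transporters was -0.034, and the members of each pair lay on opposite sides of 0 as deposited.

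The 17 glycolytic enzymes ranged from a mean of 3.19 FPKM for Eno3 to 2677 FPKM for Pgk1. Their summed level was 10218.5 ± 318 FPKM (SD, n = 3) with anti–VEGF-B and 8938 ± 346 FPKM with IgG. As a share of all listed FPKM this was 3.77%, 3.76% and 3.82% with anti–VEGF-B against 3.35%, 3.30% and 3.39% with IgG. The groups did not overlap, but no background was computed for such a share, and abundant enzymes such as Pgk1 weigh most in it. Of the 17 enzymes 4 were called higher, and the other 13 did not pass the test in either direction. The median log2 fold change was 0.13, with 15 positive values. Of all genes tested 4.87% were called higher and 28.8% had positive values. Among those with a mean of at least 100 FPKM these shares were 16.7% and 69.5%, with a median of 0.099. The medians were 0.087 after quantile normalization, with 1 enzyme called, and 0.37 with the common median, with 7 called.

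**Figure D3:**
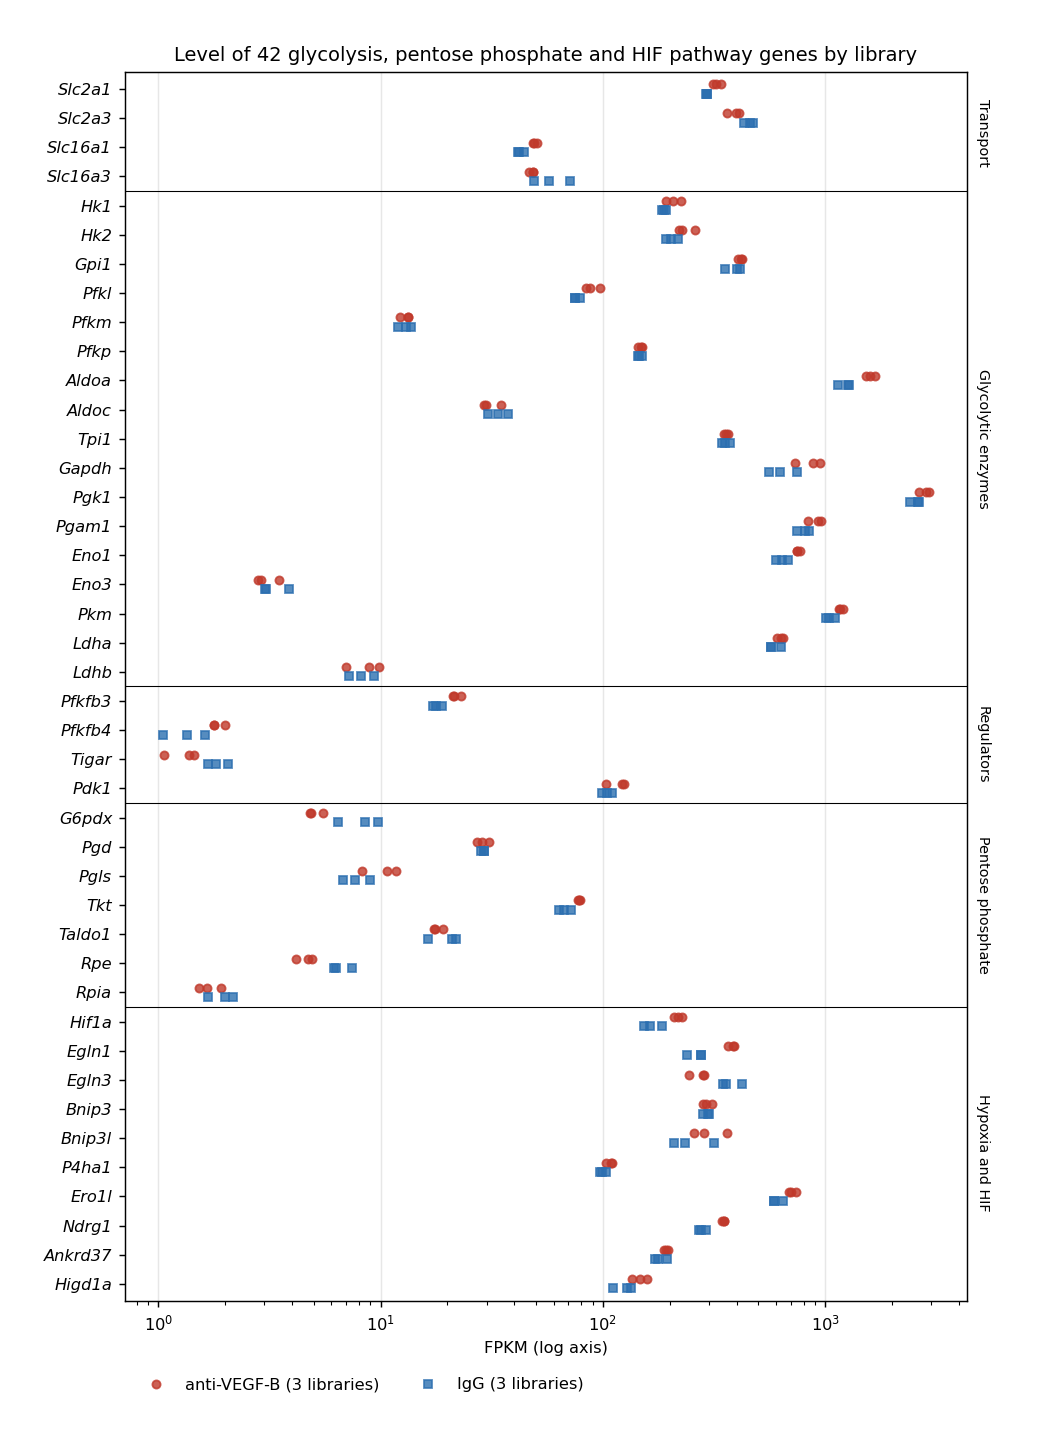
FPKM of each of the 42 genes in every library (log axis), grouped by role, with 3 anti–VEGF-B and 3 IgG libraries as separate points. Pgk1 is highest at a mean of 2677 FPKM and Tigar lowest at 1.57 FPKM, and the distance between the groups is small beside the range of levels between genes.

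At the entry of the pathway, the hexokinases that phosphorylate glucose were not called. Hk1 was at 206, 224 and 193 FPKM with anti–VEGF-B and 184, 193 and 189 FPKM with IgG (log2 fold change 0.14, limma adjusted p = 0.195), and Hk2 at 219, 260.4 and 227 FPKM against 191, 202 and 218 FPKM (0.20, adjusted p = 0.108). Gpi1, the isomerase that follows, had means of 415 ± 8.29 and 389.7 ± 32.1 FPKM (0.093, adjusted p = 0.401).

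Phosphofructokinase commits the sugar to glycolysis, and its liver-type subunit Pfkl (chr10:77986947-78010083) was called higher. Pfkl was at 84.4, 97.4 and 87.8 FPKM with anti–VEGF-B and at 75.3, 74.9 and 78.9 FPKM with IgG, a difference of 0.23 (SE 0.076, limma adjusted p = 0.0497). The call held under only 1 of the 13 alternatives tried, scaling to a common median. The platelet-type subunit Pfkp, the more abundant one, had means of 148 ± 2.84 and 147 ± 2.94 FPKM (0.0095, adjusted p = 0.921), and the muscle-type subunit Pfkm 13 ± 0.603 and 12.9 ± 0.843 FPKM (0.0093, adjusted p = 0.942).

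Aldolase cleaves the resulting bisphosphate, and Aldoa (chr7:126795234-126800751) had the second-highest fold change of the glycolytic enzymes. It was at 1668, 1521 and 1582 FPKM with anti–VEGF-B and at 1278, 1146 and 1265 FPKM with IgG, with no overlap. The difference was 0.37 (SE 0.084, limma adjusted p = 0.0145), a level 29.3% higher. A further row under the same symbol (chr7:126800790-126809108) had a mean of 0.57 FPKM and was not tested. Aldoc, the brain-type aldolase, was at 31.2 ± 2.99 and 33.8 ± 3.47 FPKM (-0.11, adjusted p = 0.408), and Tpi1, which interconverts the products of aldolase, at 358 ± 7.45 and 357 ± 16.2 FPKM (0.0034, adjusted p = 0.974).

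Gapdh (chr6:125161715-125166467), which carries out the oxidative step and is often used as a reference gene, was called higher although its groups overlapped. Its values were 878, 735 and 943 FPKM with anti–VEGF-B and 750.0, 626 and 558 FPKM with IgG. The difference was 0.40 (SE 0.13, limma adjusted p = 0.0423), and the highest IgG library lay above the lowest anti–VEGF-B library. The call was absent without IgG replicate 2 or without IgG replicate 3, among other alternatives.

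In the remainder of the pathway, Eno1 (chr4:150236721-150248879), the main enolase, was called higher, at 746, 746 and 771 FPKM against 678, 601 and 637 FPKM (log2 fold change 0.24, SE 0.076, limma adjusted p = 0.0435). Pkm, encoding pyruvate kinase, also had groups that did not overlap, at 1156, 1198 and 1164 FPKM against 1109, 1013 and 1040.5 FPKM, but was not called (0.15, adjusted p = 0.15). Pgk1, the most abundant member and a generator of ATP, had means of 2801 ± 145 and 2553 ± 124 FPKM (0.13, adjusted p = 0.262).

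The mutase Pgam1 was at 910.0 ± 62.6 and 803 ± 51.6 FPKM (0.18, adjusted p = 0.143). Ldha, which makes lactate from pyruvate, was at 629 ± 18.2 and 593 ± 36.4 FPKM (0.086, adjusted p = 0.41). The low-abundance paralogs Eno3 and Ldhb had means of 3.06 and 3.32 FPKM and of 8.59 and 8.25 FPKM and were not called. For Aldoa, Gapdh, Pgk1, Pgam1, Ldha, Ldhb and Bnip3l, RefSeq names pseudogenes, and how reads shared with them were counted is not given in the sources used here.

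Of the 4 regulators, Pfkfb3 (chr2:11471433-11554077) was called higher. Its product makes fructose 2,6-bisphosphate, the activator of phosphofructokinase. Pfkfb3 was at 21.3, 23 and 21.2 FPKM with anti–VEGF-B and at 17.2, 17.7 and 18.9 FPKM with IgG, a difference of 0.27 (SE 0.078, limma adjusted p = 0.033). The call held under 7 of the 13 alternatives. When single libraries were left out, it held only without IgG replicate 3 (limma adjusted p = 0.0472 to 0.0918 over these fits).

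The related Pfkfb4 was low, at 1.79, 1.79 and 1.99 FPKM against 1.05, 1.62 and 1.35 FPKM (0.29, limma adjusted p = 0.0838), and was called with quantile normalization (adjusted p = 0.0117) and with the common median (adjusted p = 0.0154). Tigar, whose product degrades fructose 2,6-bisphosphate, lay on the other side at 1.45, 1.37 and 1.06 FPKM against 1.83, 2.05 and 1.67 FPKM (-0.31, adjusted p = 0.0602). In Pfkfb3, Pfkfb4 and Tigar the groups did not overlap, as in 38.5% (lower) and 10.5% (higher) of all genes tested. Pdk1, whose product inhibits pyruvate dehydrogenase and so the conversion of pyruvate to acetyl-CoA, was at 116 ± 11.4 and 104 ± 5.39 FPKM (0.15, adjusted p = 0.204).

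Of the 7 pentose phosphate enzymes 2 were called lower, or 28.6%, near the 23.8% of all genes tested. G6pdx (chrX:74409483-74429194) encodes glucose-6-phosphate dehydrogenase, the entry enzyme and a source of NADPH. It was at 5.51, 4.83 and 4.87 FPKM with anti–VEGF-B and at 6.42, 9.79 and 8.54 FPKM with IgG, with no overlap. The difference was -0.59 (SE 0.14, limma adjusted p = 0.0161), the lowest of the set, and the mean level fell by 38.6%. The span of G6pdx is shared in full, over 19712 bases, with Ikbkg on the opposite strand, itself at a mean of 0.516 FPKM.

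Rpe (chr1:66700831-66719805), the epimerase of the non-oxidative branch, was at 4.74, 4.18 and 4.94 FPKM with anti–VEGF-B and at 6.29, 7.48 and 6.17 FPKM with IgG. Its difference was -0.44 (SE 0.11, limma adjusted p = 0.0179). After quantile normalization it was -0.24 (adjusted p = 0.0918) and with the common median -0.24 (adjusted p = 0.0787), so that the call rested on the values as deposited.

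The other 5 enzymes were not called. Tkt, transketolase and the most abundant gene of the pathway, lay apart in the other direction at 77.9, 78.5 and 76.9 FPKM against 72.2, 63.3 and 66.9 FPKM (0.20, limma adjusted p = 0.0628). Pgls, the lactonase, was at 10.7, 11.7 and 8.29 FPKM against 7.70, 6.81 and 9 FPKM (0.34, adjusted p = 0.087). Pgd, the next dehydrogenase after G6pdx, was at 28.9 ± 1.84 and 28.8 ± 0.586 FPKM (0.0014, adjusted p = 0.991).

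Taldo1, transaldolase, and Rpia, the ribose isomerase, had differences of -0.12 and -0.13 that were not called. The median of the 7 enzymes was -0.12 as deposited, 0.067 after quantile normalization and 0.11 with the common median, so that the direction of the group as a whole depended on the scaling while that of G6pdx and Rpe did not. As a share of all listed FPKM the pathway took 0.0542 ± 0.00263% (SD, n = 3) with anti–VEGF-B and 0.0527 ± 0.00101% with IgG.

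In the hypoxia response, Hif1a (chr12:73901375-73947530) was called higher. It was at 217, 208 and 227 FPKM with anti–VEGF-B and at 163, 154 and 185 FPKM with IgG, with no overlap. The difference was 0.38 (SE 0.084, limma adjusted p = 0.0139). A gene on the same strand, AC124712.1 at a mean of 0.896 FPKM, overlaps 9878 bases of its span.

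The 2 prolyl hydroxylases of the set changed in opposite directions. Egln1 (chr8:124908587-124949324), whose product PHD2 is the main oxygen sensor acting on HIF-1α, was at 365, 385 and 389 FPKM with anti–VEGF-B and at 276, 239 and 275 FPKM with IgG. Its difference was 0.53 (SE 0.081, limma adjusted p = 0.00557), and it was called under 12 of 13 alternatives, more than any other gene of the set. Egln3 (chr12:54178981-54203860), encoding PHD3, was at 282, 284 and 244 FPKM with anti–VEGF-B and at 347, 424 and 357 FPKM with IgG. Its difference was -0.47 (SE 0.099, limma adjusted p = 0.0118), and with the common median -0.24 (adjusted p = 0.0994). In neither gene did the groups overlap, and the summed level of both was 650 ± 17.8 FPKM with anti–VEGF-B and 639 ± 20.6 FPKM with IgG.

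The remaining HIF subunits and sensing genes are given for completeness and were named after their values were seen. Egln2, encoding PHD1, was far less abundant than the other hydroxylases, at 7.45, 7.98 and 6.72 FPKM with anti–VEGF-B and at 9.13, 10.8 and 9.13 FPKM with IgG, and was called lower (-0.35, limma adjusted p = 0.0335). Arnt, the constitutive partner of HIF-1α, lay apart in the other direction at 8.30 ± 0.262 and 7.09 ± 0.176 FPKM without being called (0.20, adjusted p = 0.0965). Epas1 and Hif3a, the genes of the other HIF-α subunits, and Vhl, which encodes the ubiquitin ligase subunit that recognizes hydroxylated HIF-1α, were not called, with adjusted p of 0.0632, 0.0637 and 0.199. Hif3a nevertheless had groups that did not overlap, lower with anti–VEGF-B, as did 38.5% of all genes tested. Groups apart in the higher direction, as in Arnt, were found for 10.5%. Arnt was called higher after quantile normalization (adjusted p = 0.0164) and Egln2 lost its call (adjusted p = 0.127).

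**Figure D4:**
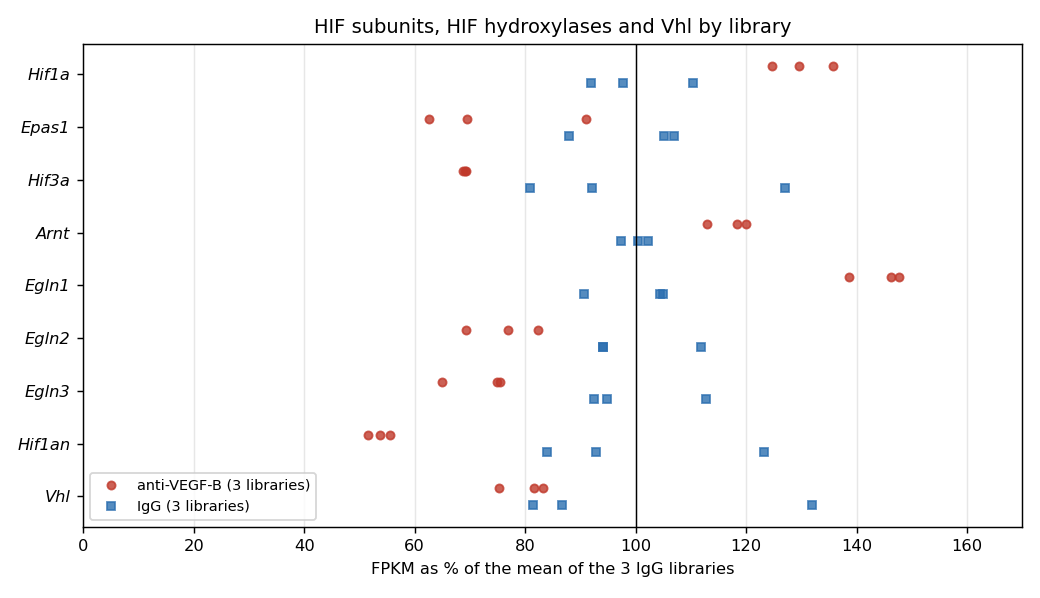
Level in each of the 6 libraries as a percentage of the mean of the 3 IgG libraries (horizontal axis, vertical line at that mean) for the HIF subunits, the HIF hydroxylases and Vhl, with anti–VEGF-B libraries as circles and IgG libraries as squares. All 3 circles of Hif1a, Egln1 and Arnt lie to the right of the squares (Egln1 365 to 389 FPKM against 239 to 276 FPKM). Those of Egln2, Egln3, Hif3a and Hif1an lie to the left (Egln3 244 to 284 FPKM against 347 to 424 FPKM). Of all genes tested 38.5% (lower) and 10.5% (higher) had groups that did not overlap.

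Among the HIF-inducible genes, Ndrg1 (chr15:66929321-66969640), a stress-response gene, was called higher. It was at 351, 342 and 351 FPKM with anti–VEGF-B and at 277, 270.1 and 289 FPKM with IgG (log2 fold change 0.32, SE 0.068, limma adjusted p = 0.0125). Ero1l, an oxidase of the endoplasmic reticulum, also lay apart at 703, 688 and 735 FPKM against 589.9, 588 and 649 FPKM without being called (0.22, adjusted p = 0.0581), as did Higd1a, a mitochondrial protein, at 146, 136 and 157 FPKM against 133, 111 and 129 FPKM (0.23, adjusted p = 0.0815).

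The mitophagy receptors were not called. Bnip3l was at 284, 257 and 361 FPKM with anti–VEGF-B and at 235, 208 and 316 FPKM with IgG (0.26, limma adjusted p = 0.257), the highest value of each group being that of its replicate 3. Bnip3 was at 295 ± 13.4 and 292 ± 10.1 FPKM (0.011, adjusted p = 0.918). P4ha1, a collagen prolyl hydroxylase subunit, and Ankrd37 had differences of 0.10 and 0.095 and were not called. All 10 hypoxia genes had a mean of at least 100 FPKM. For all genes at that level the median log2 fold change was 0.099 as deposited, 0.022 after quantile normalization and 0.33 with the common median. The median of the 10 hypoxia genes was 0.23, 0.13 and 0.46 under the same scalings. Their share of all listed FPKM was 1.10 ± 0.0281% with anti–VEGF-B and 0.990 ± 0.0556% with IgG.

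A share within a library does not depend on linear scaling between libraries, and paralogs were also compared as percentages of the summed FPKM of their family. Of 21 shares in 10 families, 10 shares in 5 families did not overlap between the groups. In families with 2 members the shares mirror each other and count as 1 comparison. For the levels of single genes, 38.5% (lower) and 10.5% (higher) of all genes tested did not overlap. No such background was computed for shares, and 5 of 10 families is not taken to exceed one. With 3 against 3 libraries the smallest two-sided exact permutation p is 0.1, so that no share could pass 0.05, and the value adjusted over the 21 shares was 0.21 for each of these 10.

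The Egln1 share of Egln1 and Egln3 showed the largest difference. It was 56.5%, 57.6% and 61.4% with anti–VEGF-B and 44.3%, 36.1% and 43.5% with IgG, a difference of 17.2 percentage points (exact permutation p = 0.1). Egln3 was thus the more abundant hydroxylase in each IgG library and Egln1 in each anti–VEGF-B library.

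The Slc16a1 share of the lactate carriers was 50.2%, 49.9% and 51.9% against 46.0%, 36.8% and 43.5%, a difference of 8.58 points. Slc2a1 took 44.0%, 46.0% and 46.4% of the glucose transporter pair against 40.7%, 38.3% and 38.8%, a difference of 6.23 points. Pfkl took 34.8%, 37.5% and 35.1% of the phosphofructokinase subunits against 31.6%, 32.2% and 33.3%, a difference of 3.48 points. The Aldoa share of the aldolases differed by 0.77 points, from 97.3% to 98.1%. The exact permutation p was 0.1 for each.

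In the hexokinase, enolase, lactate dehydrogenase, Pfkfb and Bnip3 families the shares overlapped, with exact permutation p of 0.2 to 0.8. Hk1 held 46.9 ± 1.38% of the hexokinase pair (SD, n = 3) with anti–VEGF-B and 48.1 ± 1.48% with IgG.

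**Figure D5:**
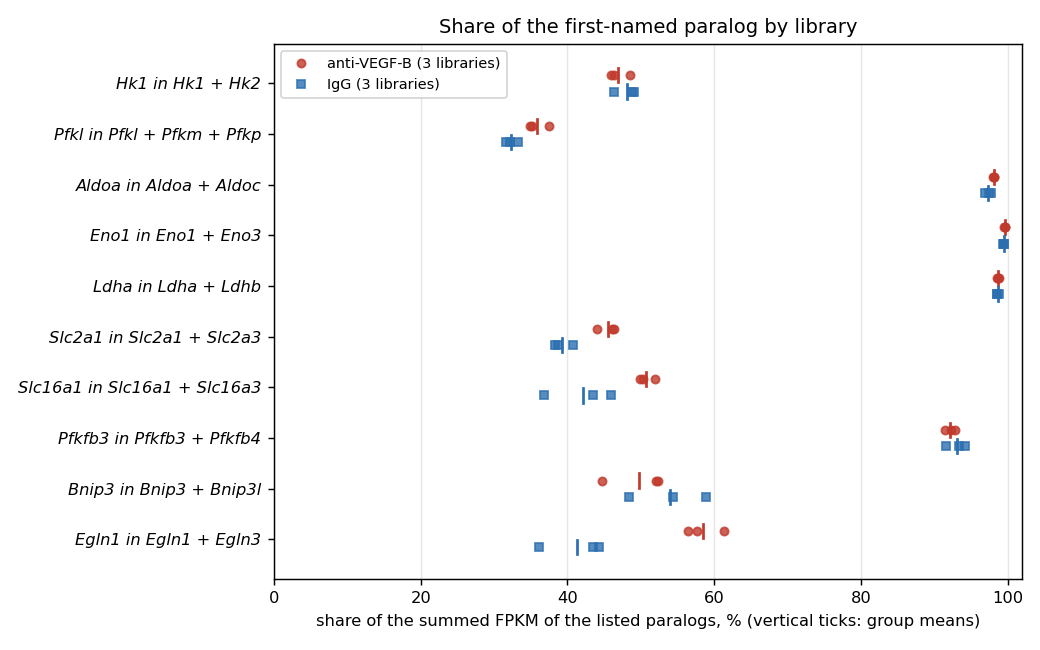
Percentage of the summed FPKM of a paralog family taken by its first-named member in each library, with anti–VEGF-B libraries as circles, IgG libraries as squares and group means as vertical ticks. The Egln1 share is 56.5% to 61.4% with anti–VEGF-B and 36.1% to 44.3% with IgG, and the shares of Hk1 overlap between the groups.

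Other genes of the same pathways were taken from lists written by name. Of 28 further glycolytic and hexose genes 13 were tested, of which 2 were lower and 2 higher with a median log2 fold change of -0.16. Of 12 further pentose phosphate and ribose genes 7 were tested, of which 3 were lower and 0 higher with a median of -0.36. Of 35 further hypoxia pathway genes 28 were tested, of which 5 were lower and 3 higher with a median of 0.026. These counts stand beside the 23.8% and 4.87% of all genes called lower and higher.

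Genes were named from these lists where they were called, differed by over 0.5 on the log2 scale and had groups that did not overlap. Adm, which encodes the vasodilator peptide adrenomedullin and is a HIF target, was at 288, 295 and 310.2 FPKM with anti–VEGF-B and at 191, 149 and 198 FPKM with IgG (0.74, limma adjusted p = 0.00511). Bhlhe40, a HIF-inducible transcriptional repressor active in T cells, was at 562, 565 and 579 FPKM against 404, 347 and 419 FPKM (0.55, adjusted p = 0.00634).

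The hypoxia list also held the lower genes Fam162a, a mitochondrial HIF-inducible gene, at 193 ± 18.6 and 301 ± 39.4 FPKM (-0.63, limma adjusted p = 0.00714), Narf at 9.40 ± 0.527 and 15.7 ± 1.67 FPKM (-0.68, adjusted p = 0.00491) and Hif1an at 2.76 ± 0.103 and 5.15 ± 1.06 FPKM (-0.70, adjusted p = 0.00876). Hif1an encodes FIH, the asparaginyl hydroxylase that limits the activity of HIF-1α. Egln1 and Hif1an, whose products both act on HIF-1α, thus differed in opposite directions.

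In the other lists, Pgam5 was at 2.73 ± 0.428 and 4.76 ± 0.554 FPKM (-0.63, limma adjusted p = 0.00994). Its product is a mitochondrial protein phosphatase and not a glycolytic mutase. H6pd, the hexose-6-phosphate dehydrogenase of the endoplasmic reticulum, was at 0.864, 0.934 and 0.796 FPKM against 1.36, 2.24 and 1.62 FPKM (-0.54, adjusted p = 0.0169). G6pc3, a ubiquitous glucose-6-phosphatase, was at 0.427, 0.821 and 0.938 FPKM against 1.45, 1.88 and 1.14 FPKM (-0.53, adjusted p = 0.031), and its adjusted p was 0.152 after quantile normalization.

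Calls within the set also depended on single libraries. Without anti–VEGF-B replicate 3 only Egln1 was higher and Rpe lower, and without anti–VEGF-B replicate 1 Hif1a, Egln1 and Ndrg1 were higher and G6pdx, Rpe and Egln3 lower. Without anti–VEGF-B replicate 2 Aldoa, Gapdh, Hif1a, Egln1 and Ndrg1 were higher and G6pdx and Egln3 lower. Without IgG replicate 1 the higher genes were Aldoa, Gapdh, Eno1, Tkt, Hif1a, Egln1 and Ndrg1, and Slc16a3 joined the 3 lower genes. Without IgG replicate 2 the higher genes were Aldoa, Hif1a, Egln1 and Ndrg1, and without IgG replicate 3 they were these 4 and Pfkfb3, with G6pdx, Rpe and Egln3 lower in both cases. Without variance moderation limma called 0 of the 42, with 12 higher and 5 lower at an unadjusted p under 0.05. Of all 8816 genes tested 696 were higher and 2512 lower at that unadjusted p.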

How the data were processed

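RNA of activated CD4+ T cells was measured in 3 anti–VEGF-B and 3 IgG libraries, grouped by their labels. The authors prepared stranded libraries, used hisat2, StringTie and Ballgown on GRCm38/mm10, and deposited 1 table that was read as FPKM. It is named raw data, but its values are not whole. The authors state no scaling between libraries. FPKM carry no depth: at most 2.62% of low genes shared a ratio between libraries, which gave no read counts, and the precision from counting is unknown. There were 0 further columns of values per sample.

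Genes averaging 1 FPKM or more (8816) were fitted as log2(FPKM + 1) in limma 3.58.1 (R 4.3.3, eBayes with trend, no covariate, Benjamini-Hochberg over all genes tested), after tests on simulated data. Shares of paralogs were compared by two-sided exact permutation tests (scipy 1.17.1). All members were named, and genes of further pathway lists where called with an absolute log2 fold change over 0.5 and groups apart. Members and lists were chosen with earlier results of these data known. All 42 symbols matched RefSeq (GRCm38.p6), Ero1l through a synonym. Alternatives changed the scaling, pseudocount, filter, moderation, call rule, replicate block and libraries included.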

Additional observations from a re-analysis of the deposited data

How the results depend on the processing

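The 9 higher and 3 lower members became 20 and 1 with median centring, 0 and 0 with no moderation of the variance, and 1 and 1 under a call rule that needs an unadjusted p below 0.05 and a log2 difference beyond 0.5 in size. Leaving out each library in turn gave 1 to 7 higher and 1 to 4 lower members. Over all genes, the 429 higher and 2099 lower calls became 880 and 913 with quantile normalization, 1421 and 918 with median centring, 6 and 6 with no moderation, and 123 and 998 under that call rule. The lower calls were 989 with a mean of at least 5 FPKM. Without single libraries they were 702 to 2074, and the higher calls 163 to 395, both counts being lowest without anti–VEGF-B replicate 3.

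The median log2 fold change of the transporters was 0.20 with median centring and that of the regulators 0.41. With quantile normalization and median centring, the medians of the glycolytic enzymes were 0.087 and 0.37, of the pentose phosphate enzymes 0.067 and 0.11, and of the hypoxia genes 0.13 and 0.46. Without single libraries these 3 medians were 0.11 to 0.14, -0.20 to -0.038, and 0.14 to 0.26.

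No member that was called turned direction under any alternative. Among the others, median centring gave 0.016 for Slc2a3, 0.11 for Aldoc, 0.092 for Eno3, 0.11 for Taldo1 and 0.022 for Rpia. Quantile normalization gave -0.052 for Pfkp, 0.14 for Eno3, -0.023 for Ldha, 0.11 for Rpia and -0.054 for Bnip3. Leaving out single libraries, the values ran from -0.038 to 0.049 for Pfkm, -0.0030 to 0.025 for Pfkp, -0.027 to 0.038 for Tpi1, -0.16 to 0.0019 for Eno3, -0.050 to 0.17 for Ldhb, -0.045 to 0.043 for Pgd and -0.024 to 0.040 for Bnip3. The cause of these shifts was not tested.

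Deviations of libraries with the same replicate number correlated at -0.030, 0.11 and 0.089, and the numbers were not taken to pair the libraries. With the replicate block 12 members were higher, with Pgam1, Bnip3l, Ero1l and Higd1a added and Pfkl lost, and 3 were lower. Of 147 recomputed shares of paralogs 7 moved, all with quantile normalization. FPKM give no depth, so that the precision of low members such as Tigar, Pfkfb4 and Rpia from counting is unknown.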
